A study of Mus musculus with 8 samples.

Results

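Transcripts of lymphocytes and of myeloid cells that enter the brain were measured in RNA from fluorescence-sorted somatostatin neurons of the lateral tuberal nucleus (TN SST neurons). The 48 genes described here, of 35968 genes that carried a value, were chosen by name as markers of T cells, NK and cytotoxic cells, B and plasma cells, dendritic cells, monocytes, border macrophages and neutrophils, together with lymphocyte trafficking genes and a pan-leukocyte and a complement gene. Flow-Seq, the sequencing of sorted cells in bulk, was run on 4 females and 4 males with 1 library per mouse. Every mouse carried 1 copy of the *Sst* Cre allele (genotype Ssttm2.1(cre)Zjh/J / +) and received the same agent, AAV2-flex-tdTomato, by injection into the TN, so sex is the only labelled difference between the groups. The age of the mice is not stated in the labels. Cre is made in cells that express *Sst*, and each library pooled the live, nucleated, tdTomato-positive cells that were sorted from 1 mouse. All 8 mice were injected, and no uninjected mouse and no unsorted tissue was analysed here.

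The healthy brain holds few lymphocytes, and its resident immune cells are mainly microglia. T cells recognize antigen through a receptor that signals through CD3 proteins, and B cells that mature into plasma cells secrete the antibody that they first carried on their surface. Border macrophages line the meninges, the vessels and the choroid plexus, whereas monocytes and neutrophils arrive from the blood. An antibody chain is built by joining a germline V segment to a constant region. The cells of a B cell clone share the V segments they joined, but different clones can use the same segment.

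Of these genes, 21 had enough counts to be tested. Among them 3 immunoglobulin genes (*Igkc*, *Jchain* and *Ighm*) had the largest SD of log2 CPM between mice. The V segments with the most counts were not the same in every mouse, although *Igkv6-32* led the light chain in female 4 and in male 3. The germline V segments with the most counts are therefore shown first, for the heavy and for the light chain of each mouse with at least 100 V counts. The sequences are the last 90 bases of each V segment in the GENCODE M21 reference, on the minus strand of mm10. They are reference sequences, and none was read from a mouse. Capitals mark the codon of the conserved cysteine at which the third, antigen-contacting loop begins. In female 1 these were *Ighv1-52* (chr12:115145487-115145576) and the lambda segment *Iglv1* (chr16:19085017-19085106), and in female 4 *Ighv1-72* (chr12:115757984-115758073) and the kappa segment *Igkv6-32* (chr6:70074024-70074113). In male 2 they were *Ighv3-1* (chr12:113964388-113964477) and the kappa segment *Igkv10-96* (chr6:68631963-68632052), and in male 3 *Ighv3-6* (chr12:114288152-114288241) and again *Igkv6-32*.
Ighv1-52: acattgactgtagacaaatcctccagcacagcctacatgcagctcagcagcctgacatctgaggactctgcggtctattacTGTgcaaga
Iglv1: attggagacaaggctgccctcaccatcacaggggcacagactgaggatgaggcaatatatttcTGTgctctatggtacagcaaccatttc
Ighv1-72: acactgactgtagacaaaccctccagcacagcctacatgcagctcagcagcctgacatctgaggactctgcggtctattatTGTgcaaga
Igkv6-32: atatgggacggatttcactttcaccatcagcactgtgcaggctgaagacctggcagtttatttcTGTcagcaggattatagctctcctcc
Ighv3-1: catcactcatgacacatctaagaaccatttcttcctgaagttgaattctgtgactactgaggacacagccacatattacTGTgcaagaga
Igkv10-96: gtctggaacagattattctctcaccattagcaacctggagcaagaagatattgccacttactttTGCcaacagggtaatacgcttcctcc
Ighv3-6: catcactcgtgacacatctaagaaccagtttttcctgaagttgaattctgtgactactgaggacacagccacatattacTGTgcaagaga

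Over these bases *Ighv1-52* and *Ighv1-72* were identical at 87 of 90 positions, as were *Ighv3-1* and *Ighv3-6*, whereas the kappa segments *Igkv6-32* and *Igkv10-96* were identical at 58 of 90. Close relatives of this kind share reads, so a V segment's name is uncertain where much of its sequence recurs elsewhere. Of the 31-base stretches of *Ighv1-72*, 98.1% also occurred in other genes, against 77.1% for *Ighv1-52*, 44.7% for *Ighv3-1*, 48.02% for *Igkv10-96*, 36.8% for *Iglv1*, 15.1% for *Ighv3-6* and 2.08% for *Igkv6-32*.

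The heavy chain constant gene *Ighm*, which encodes the mu chain of IgM, makes a membrane and a secreted form from alternative 3′ ends, and the bases that tell them apart are shown because the share of the secreted form differed between mice. The secreted tail (chr12:113420870-113420928, minus strand) is found only in the 4-exon transcript, and its capitals mark the codon of the cysteine through which IgM units are joined. The fifth exon of the 6-exon transcript (chr12:113418953-113419068, minus strand) is specific to the membrane form and encodes most of the stretch that crosses the membrane.
Ighm secreted tail: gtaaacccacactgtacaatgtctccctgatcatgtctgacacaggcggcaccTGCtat
Ighm membrane exon: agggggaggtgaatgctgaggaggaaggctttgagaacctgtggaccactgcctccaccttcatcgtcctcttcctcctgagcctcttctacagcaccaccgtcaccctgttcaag

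Depth ran from 7.83 to 17.6 per mouse, in units of 1000000 estimated counts. The gene *Lars2* alone held between 9.34% (female 3) and 34.4% (female 2) of the counts assigned to genes. TPM were not rescaled between mice for such differences, whereas CPM were TMM-scaled. Levels of 1 gene are compared between mice as TMM-scaled counts-per-million values (CPM), and levels of different genes as transcripts-per-million values (TPM), which divide by transcript length. The limit of detection was set at 3 counts, which is 0.148 to 0.458 CPM depending on the mouse, and such limits and the intervals given here cover counting error only. The labelled cell type is neurons, and the summed TPM of 9 neuronal genes, *Sst* among them, lay between 2797 and 5402. The summed TPM of 9 microglial genes lay between 304 and 3603, so the sorted RNA also held transcripts of a brain immune cell. In bulk RNA fewer cells of a type and less RNA per cell cannot be told apart.

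Of the 48 genes, 41 reached at least 10 estimated counts in at least 1 mouse and 6 did so in every mouse. Females 1 to 4 had 18, 9, 18 and 15 of the genes at that level, and males 1 to 4 had 27, 38, 24 and 14. These numbers were not matched for depth. The 7 genes that stayed under 10 counts everywhere were *Gzma*, *Prf1* and *Ncr1* of cytotoxic cells, *Cd209a* of dendritic cells, *Pf4* of macrophages and platelets, and both neutrophil genes, *S100a8* and *S100a9*. The neutrophil genes had at most 4 counts in any mouse. Male 2 stood apart from the other mice. It was the highest mouse in CPM for 34 of the 41 genes. It was also the highest for 17 of the 21 with enough counts to be tested. Of the 15194 genes tested, 18.5% were highest in male 2. *Klrb1c*, *Klrk1*, *Eomes*, *Tbx21*, *Cd79a*, *Cd79b*, *Lyve1* and *Cxcr3* reached 10 counts in male 2 alone, so that mouse alone put them in the 41. Shares over all genes here use the filter of the 21 genes, not that of the 41. Male 4 was the highest for 4 of the 41 genes (*Mrc1*, *Cd163*, *Plac8* and *Ighd*), where the share over all genes tested was 16.7%. *Plac8* and *Ighd* reached 10 counts in male 4 alone. Female 4 and males 1 and 3 were the highest for 1 gene each (13.1%, 12.1% and 5.33% of all genes tested), and females 1, 2 and 3 for 0 (6.41%, 10.5% and 17.4%). Without male 2, the highest mouse was female 1 and male 3 for 10 genes each, male 4 for 8, male 1 for 7, female 4 for 3, female 2 for 2 and female 3 for 1. Over all genes tested these shares were 9.11% for female 1, 7.71% for male 3, 24.2% for male 4, 14.3% for male 1, 14.4% for female 4, 11.8% for female 2 and 18.5% for female 3.

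**Figure D1:**
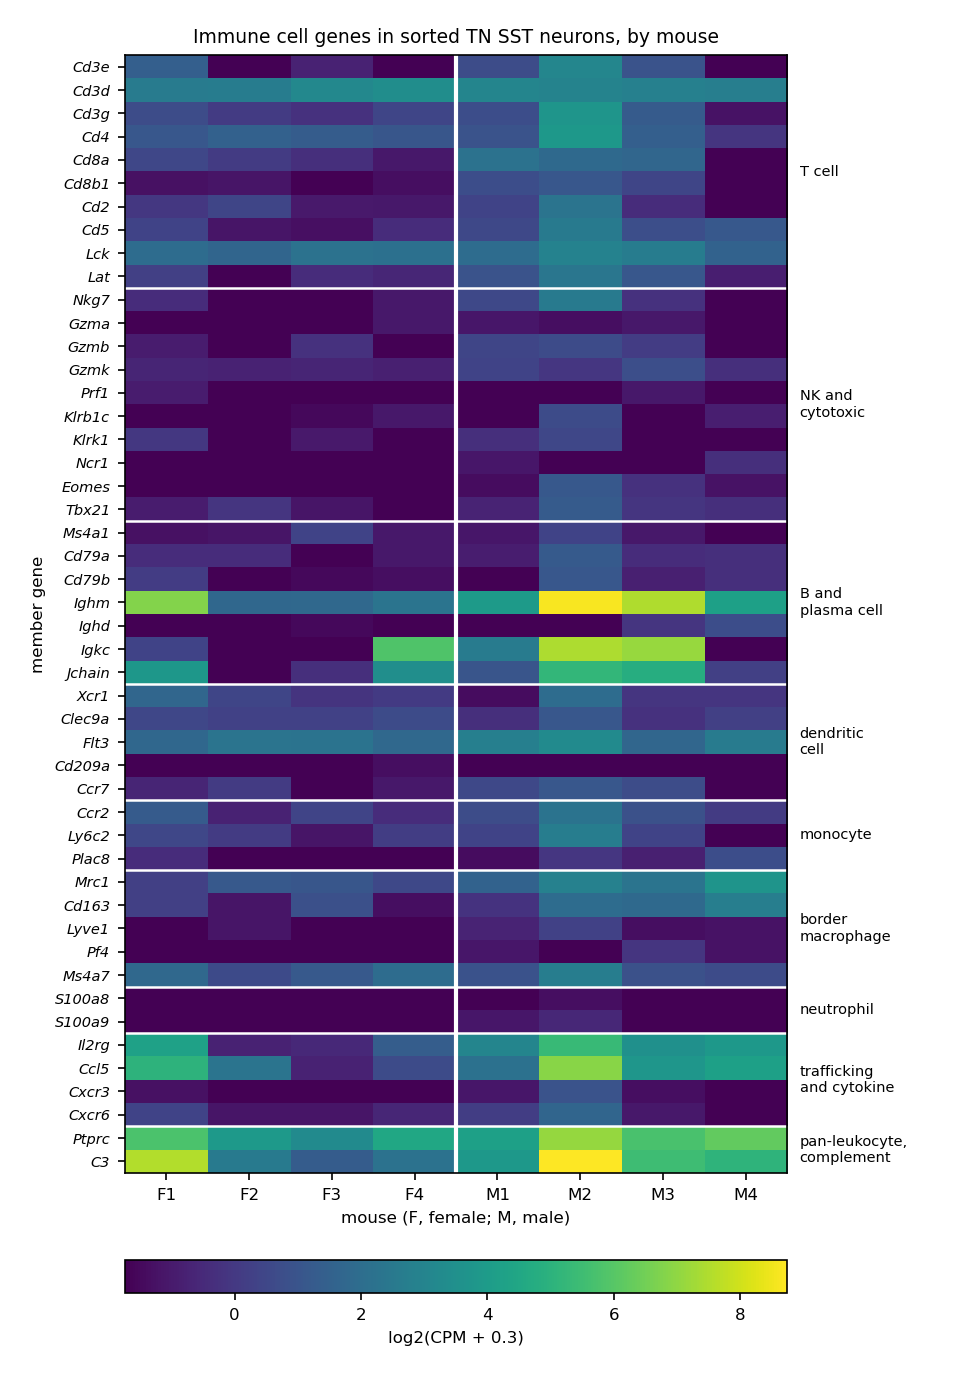
Colour gives the level of each of the 48 genes, as log2(CPM + 0.3), in each mouse (columns F1 to F4, females, and M1 to M4, males), with genes grouped by cell type. The column of male 2 is the brightest for 34 of the 41 genes that reached 10 counts, some of them in male 2 alone. *Cd3d* is nearly even across mice and both neutrophil genes are dark throughout.

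Of the 21 genes tested, antibody genes had the largest SD of log2 CPM over the 8 mice, 4.39 for *Igkc*, 2.79 for *Jchain* and 2.73 for *Ighm*, followed by *C3* at 2.64 and *Ccl5* at 2.54. *Igkc* (ENSMUSG00000076609.2, chr6:70726435-70726966, plus strand), the constant region of the kappa light chain, had 9, 0, 0 and 644 counts for females 1 to 4, and 71, 1911, 1578 and 0 for males 1 to 4. It was thus at 0 in females 2 and 3 and in male 4. Male 2, at 175 CPM, was 1183-fold above the 3-count limit of female 3, which was 0.148 CPM. The limits of female 2 (0.458 CPM) and male 4 (0.378 CPM) were higher, so the fold above them was smaller. *Ighm* (ENSMUSG00000076617.9, chr12:113418558-113422730, minus strand) had 993, 20, 64 and 51 counts for females 1 to 4, and 189, 4348, 2015 and 145 for males 1 to 4. Unlike *Igkc* it was detected in every mouse, with the highest level, 398 CPM in male 2, 130.4-fold above the lowest, 3.05 CPM in female 2. *Jchain*, the chain that joins units of IgM and IgA, was at 13.7, 0, 0.493 and 10.5 CPM in females and at 1.71, 36.3, 27.1 and 0.882 CPM in males. *Jchain* was therefore highest in the 4 mice with the most antibody transcripts, males 2 and 3 and females 1 and 4. In these 4 mice, genes of the B cell surface were far lower than *Ighm* and *Jchain*. This did not hold in every mouse. In male 4, *Igkc* was at 0 and *Jchain* at 0.882 CPM, against 1.39 CPM of *Ighd*. In female 3, *Jchain* was at 0.493 CPM, against 0.987 CPM of *Ms4a1*. *Cd79b*, which signals beneath the B cell receptor, was at 0.777, 0, 0.0493 and 0.0900 CPM in females and at 0, 1.83, 0.268 and 0.504 CPM in males. *Cd79a*, its partner, had between 0 and 22 counts, the most in male 2. *Ms4a1*, which encodes CD20, had 20 counts in female 3 (0.987 CPM), 11 in male 2 (1.01 CPM) and at most 2 elsewhere. Only 13.3% of its counts lay on coding transcripts. *Ighd*, the constant region of IgD on naive B cells, had 7 counts in male 3, 11 in male 4, 1 in female 3 and 0 in the other 5 mice. *Cd79a* shared 12.2% of its 31-base stretches with another gene, *Gm32220*, and *Igkc* and *Ighm* shared 0%.

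The wider set of immunoglobulin gene segments was looked at after these values were seen. Constant region genes together held 1303, 20, 65 and 1547 counts for females 1 to 4, and 264, 6332, 3603 and 156 for males 1 to 4. V segments held 222, 0, 1 and 436 counts in females and 38, 1284, 567 and 2 in males. The mice thus separated into 4 with at least 222 V counts, male 1 with 38, and females 2 and 3 and male 4 with at most 2. In female 1 the heavy chain was almost wholly *Ighm* and the light chain lambda. There *Iglc1* had 291 counts, *Iglv1* 116 and *Ighv1-52* 106, and kappa made up 2.91% of the light chain constant counts (Wilson 95% interval 1.54% to 5.44%, 309 counts). In each of the other 4 mice with light chain counts kappa made up 94.7% or more. Female 4 differed in its heavy chain, with 443 counts of *Igha* and 391 of *Ighg2b*, the constant regions of IgA and IgG2b, against 51 of *Ighm*. In the other 7 mice *Igha* had at most 20 counts and *Ighg2b* at most 14. *Ighv1-72* held 323 of the 324 heavy chain V counts of female 4, and *Igkv6-32* all 112 light chain V counts. Male 2 carried *Igkv10-96* with 648 counts, *Ighv3-1* with 356, *Ighv2-9-1* with 182, *Igkv6-32* with 58 and *Ighv1-66* with 18. Male 3 carried *Igkv6-32* with 262 counts, *Ighv3-6* with 128, *Ighv1-53* with 100 and *Ighv1-9* with 73. In male 1, *Ighv1-53* had 24 counts and *Igkv6-32* had 13. Of the 218 V segments with a value, 11 reached 10 counts in any mouse, and 9 of those did so in exactly 1 mouse. The exceptions were *Ighv1-53*, in males 1 and 3, and *Igkv6-32*, in female 4 and males 1, 2 and 3. *Ighv1-53* shared 72.9% of its 31-base stretches with other genes, so its name, and such tallies of segments, are uncertain.

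**Figure D2:**
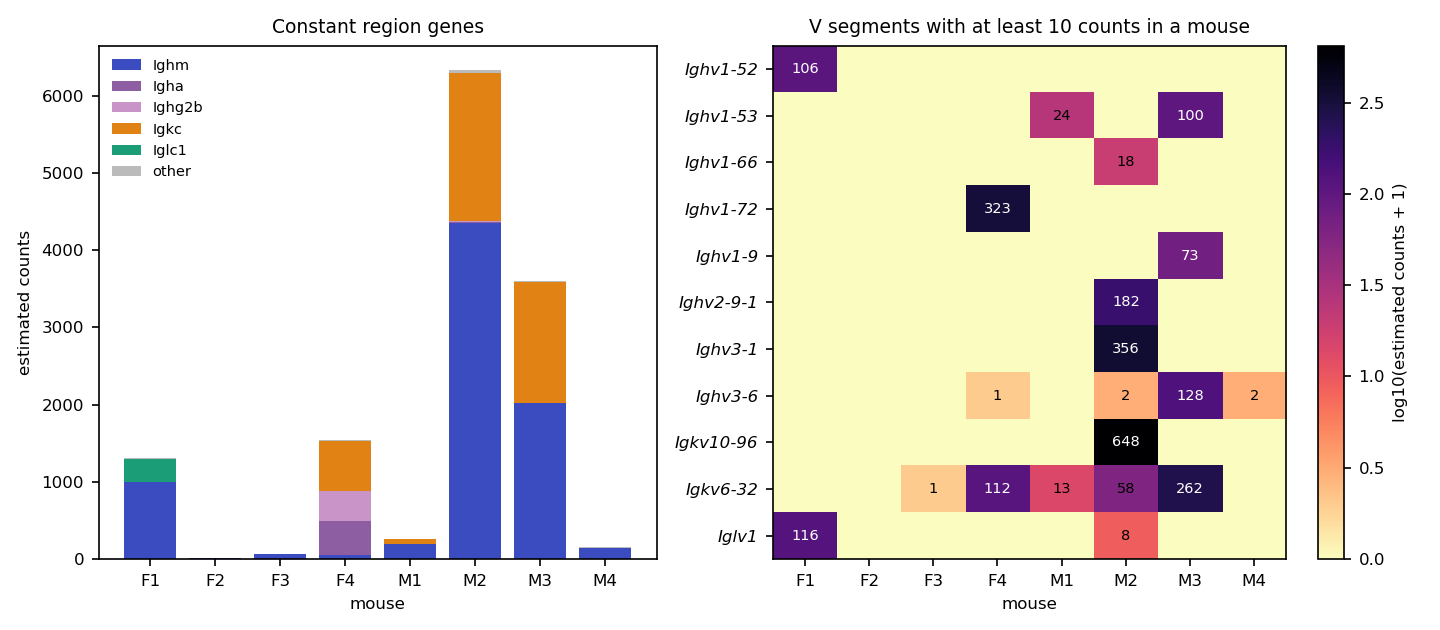
The left panel stacks the estimated counts of immunoglobulin constant region genes in each mouse (F, female; M, male), and the right panel gives the counts of each V segment that reached 10 counts in a mouse, with shading as log10(counts + 1). The stack reaches 6332 counts in male 2 and 3603 in male 3, the lambda gene *Iglc1* appears in female 1 and *Igha* and *Ighg2b* in female 4, and most V segments fill the cell of a single mouse.

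The share of *Ighm* counts that fell on the secreted form (the tail printed above) was 86.7% in female 1 (Wilson 95% interval 84.5% to 88.7%), 88.0% in male 2 (87.0% to 89.0%) and 96.6% in male 3 (95.7% to 97.3%). These 3 mice had the most *Ighm* counts. The share was 55.6% in male 1 (48.4% to 62.5%), 45.0% in female 2 (25.8% to 65.8%), 51.6% in female 3 (39.6% to 63.4%) and 47.1% in female 4 (34.1% to 60.5%). It was lowest in male 4, at 11.7% (7.45% to 17.97%), with 128 of 145 counts on the membrane form. The intervals of female 1 and males 2 and 3 lie above those of the other 5 mice, and the interval of male 4 lies below all others. kallisto assigns reads to transcripts by estimation, so these shares also depend on how reads common to both forms were divided.

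T cell genes were low, and male 2 was the highest mouse for 8 of the 10. The exceptions were *Cd8a*, highest in male 1, and *Cd3d*, highest in female 4. *Cd3g*, a chain of the CD3 complex, was at 1.33, 0.764, 0.543 and 1.08 CPM for females 1 to 4, and at 1.38, 12.8, 2.14 and 0.126 CPM for males 1 to 4. Male 2 held 63.5% of the CPM summed over mice. *Cd3e*, the CD3 chain needed for the receptor to reach the surface, was at 2.44, 0, 0.296 and 0 CPM in females and at 1.30, 8.07, 1.61 and 0 CPM in males. It was therefore at 0 counts in females 2 and 4 and in male 4. *Cd5*, a brake on receptor signaling, was at 0.999, 0.153, 0.0987 and 0.450 CPM in females and at 1.14, 5.68, 1.43 and 1.89 CPM in males, so that each male lay above each female. *Cd3d* did not share this pattern. Its CPM were 5.88, 6.11, 8.73 and 10.3 in females and 7.98, 7.33, 6.79 and 6.42 in males, a range of 1.74-fold with female 4 highest. *Lck*, the kinase that starts receptor signaling, was at 3.66, 2.90, 4.34 and 4.05 CPM in females and at 3.66, 7.24, 5.99 and 2.64 CPM in males, a range of 2.74-fold. *Lck* and *Cd3d* had the highest mean TPM of the T cell list, 9.99 and 9.98, so sums over the list are led by genes that varied least. Only 40.2% of the *Lck* counts lay on coding transcripts. The strand setting of the counting is not given, so reads from overlapping or antisense transcripts could not be told apart from those of *Cd3d* and *Lck*, nor in the list sums these genes lead. The coreceptor *Cd4*, named after its values were seen, had 5 to 45 counts in the other mice and 156 in male 2. *Cd8a*, likewise named afterwards, had 53, 36 and 34 counts in males 1, 2 and 3, 2 to 10 in the females and 0 in male 4. *Cd8b1*, its partner chain, had 17, 20 and 12 counts in males 1, 2 and 3 and at most 1 elsewhere. *Cd2* and *Lat*, an adhesion receptor and an adaptor of the T cell receptor, were highest in male 2, with 50 and 53 counts.

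Further genes of T cell receptor signaling and co-stimulation were read from a list of 20. Of these, 13 had enough counts to be tested and 12 of the 13 were highest in male 2. The 3 with the highest mean TPM were *Lcp2*, *Bcl11b* and *Trac*. *Trac*, the constant region of the receptor's alpha chain, was at 1.22, 0.916, 0.247 and 0.270 CPM in females and at 0.896, 4.12, 1.88 and 2.14 CPM in males. *Bcl11b*, a transcription factor of T cells that neurons also express, went the other way, with 47.7 to 90.3 CPM in males and 97.9 to 172 CPM in females. Counts on receptor V segments, looked at after the values were seen, came to 7, 2, 7 and 0 in females and 7, 83, 14 and 1 in males. In male 2 they were spread over 25 segments with at most 8 counts each, 9.64% of the total. The 1284 antibody V counts of the same mouse lay on 11 segments, the largest of which held 50.5%.

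NK and cytotoxic genes were near the limit of detection. *Nkg7*, a protein of cytotoxic granules, was at 0.444, 0, 0 and 0.180 CPM in females and at 1.14, 5.59, 0.536 and 0 CPM in males, with 61 of its counts in male 2. *Gzmb*, which encodes a granule protease, was at 0.222, 0, 0.543 and 0 CPM in females and at 1.06, 1.28, 0.804 and 0 CPM in males. *Gzmk*, a related protease, was at 0.333, 0.305, 0.345 and 0.270 CPM in females and at 0.977, 0.642, 1.43 and 0.504 CPM in males. Each male lay above each female for *Gzmk*, from at most 7 counts in a female and 4 to 16 in a male. *Gzmk* had too few counts to be tested. Of all genes tested, 3.94% did not overlap with males higher. *Klrk1*, the activating receptor NKG2D, was at 0.666, 0, 0.197 and 0 CPM in females and at 0.489, 1.10, 0 and 0 CPM in males, which overlap. *Eomes*, a transcription factor of NK and memory T cells, had 0 counts in each female. Males 1 to 4 had 1, 21, 6 and 1, so its sexes did not overlap either. *Tbx21*, the related factor T-bet, had 23 counts in male 2 and at most 7 elsewhere, and *Klrb1c*, which encodes an NK cell receptor, had 14 in male 2 and at most 2 elsewhere. *Klrb1c* shared 21.2% of its 31-base stretches with other genes, chiefly *Gm44511*. The NK receptor *Ncr1* and the pore-forming *Prf1* had at most 4 and 2 counts.

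Of the member cell type lists with a value in every mouse, the dendritic cell list ranged least in summed TPM, 3.66-fold. *Flt3*, the growth factor receptor of dendritic cell precursors, was at 3.11, 4.58, 4.49 and 3.24 CPM in females and at 6.68, 9.44, 3.04 and 5.79 CPM in males, a range of 3.11-fold. *Clec9a*, a receptor for dead cells, was at 1.11, 0.916, 0.937 and 1.26 CPM in females and at 0.489, 1.83, 0.536 and 0.882 CPM in males. *Xcr1*, a chemokine receptor of the cross-presenting subset, had 27, 7, 12 and 8 counts in females and 1, 39, 7 and 5 in males, so that female 1 and male 2 were the highest. *Ccr7*, which guides dendritic cells and T cells to lymph nodes, was at 0.333, 0.764, 0 and 0.180 CPM in females and at 1.14, 1.83, 1.34 and 0 CPM in males, highest in males 1, 2 and 3, as *Cd8a* was. Among monocyte genes, *Ly6c2*, a surface protein of inflammatory monocytes, was at 1.11, 0.764, 0.148 and 0.810 CPM in females and at 0.977, 6.23, 0.983 and 0 CPM in males. It shared 23.8% of its 31-base stretches with other genes, chiefly *Ly6c1*, which endothelium expresses. *Ccr2*, the receptor by which monocytes leave the marrow, was at 2.11, 0.305, 1.04 and 0.450 CPM in females and at 1.30, 4.49, 1.52 and 0.756 CPM in males. *Plac8* had 4 counts in female 1, 0 in the other females, and 1, 7, 3 and 11 counts in males 1 to 4.

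Among border macrophage genes, *Mrc1* and *Cd163* were highest in male 4, which was low for most T cell genes. *Mrc1*, the mannose receptor CD206, was at 0.888, 1.99, 1.83 and 1.17 CPM in females and at 2.69, 7.06, 4.56 and 12.5 CPM in males, with each male above each female. *Cd163*, the hemoglobin scavenger receptor, was at 0.888, 0.153, 1.48 and 0.0900 CPM in females and at 0.570, 3.67, 3.31 and 6.42 CPM in males, with male 1 inside the range of the females. Of the 48 genes, 18 had 0 counts in male 4 and 20 had 0 in female 2, which were the shallowest libraries. Female 3, the deepest library, had 16 genes at 0. Females 1 and 4 had 10 and 14, and males 1, 2 and 3 had 6, 5 and 6. The part of depth in these numbers was not tested. Those at 0 in male 4 included *Cd3e*, *Cd8a*, *Cd8b1*, *Cd2*, *Nkg7*, *Gzmb* and *Igkc*. Other lymphocyte genes went the other way. Male 4 was second only to male 2 for *Cd5* (1.89 CPM) and *Trac* (2.14 CPM), and was the highest mouse for *Ighd*. For *Il2rg* and *Ccl5* it came behind male 2 and female 1 only. *Ms4a7* was at 3.22, 1.22, 1.97 and 3.60 CPM in females and at 1.55, 6.23, 1.52 and 1.26 CPM in males, but only 8.98% of its counts lay on coding transcripts. *Lyve1*, a hyaluronan receptor, had 10 counts in male 2 and at most 4 elsewhere, and *Pf4* had 7 counts in male 3 and at most 2 elsewhere.

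*Ccl5*, a chemokine that draws T cells and monocytes and is made by cytotoxic T cells and microglia, was at 32.4, 4.58, 0.296 and 1.26 CPM in females and at 4.15, 117, 13.4 and 18.5 CPM in males. Its level ranged 395-fold, with male 2 and female 1 highest. *Il2rg*, the common chain of several interleukin receptors, was at 18.8, 0.305, 0.395 and 2.25 CPM in females and at 7.98, 39.5, 11.1 and 14.1 CPM in males, a 100.1-fold range. It shared 28.7% of its 31-base stretches with other genes, chiefly *Gm20489*, which had at most 7 counts. *Cxcr6*, a chemokine receptor of resident memory T cells, was at 0.999, 0.153, 0.148 and 0.360 CPM in females and at 0.814, 2.93, 0.179 and 0 CPM in males. *Cxcr3*, which answers to interferon-induced chemokines, had 18 counts in male 2 and at most 2 elsewhere. *C3*, the central complement protein, was at 188, 5.65, 2.17 and 4.32 CPM in females and at 14.2, 429, 44.3 and 33.9 CPM in males. Female 1 and male 2 thus stood far above the rest for *C3*, as they did for *Cd74*, the invariant chain of antigen presentation, which earlier results of these data had singled out. *Cd74* was at 876, 10.1, 10.7 and 18.4 CPM in females and at 142, 1946, 193 and 56.9 CPM in males. *Ptprc*, which encodes CD45 and is carried by all leukocytes including microglia, was at 54.4, 14.4, 9.42 and 22.4 CPM in females and at 18.3, 138, 52.9 and 74.7 CPM in males.

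Summed per list, the TPM of the 10 T cell genes were 30.7, 18.4, 29.0 and 26.0 for females 1 to 4, and 38.9, 102, 37.6 and 16.2 for males 1 to 4. Those of the 7 B and plasma cell genes were 165, 4.17, 5.94 and 309 in females and 48.5, 1309, 951 and 23.9 in males. Those of the 5 border macrophage genes were 3.39, 1.53, 2.47 and 2.31 in females and 4.29, 10.03, 8.37 and 8.86 in males. *Ms4a7*, with few counts on coding transcripts, made up 5.30 of the TPM of male 2. *Pf4*, at 7 counts, made up 4.25 of the TPM of male 3. With the first block of each file alone, male 3 was highest for this list, at 11.6 TPM against 11.4 in male 2. The lists put the mice in different orders. After male 2, the T cell list was highest in males 1 and 3, which were close (male 3 was second when that list was summed as CPM, at 26.8 against 25.4), the B and plasma cell list in male 3, the border macrophage list in male 4 (which was highest when that list was summed as CPM), and the trafficking and pan-leukocyte lists in female 1. Lists of other cells were summed alongside. The 9 microglial genes, led by *C1qa* and *C1qb*, summed to 1840.1, 483, 304 and 784 TPM for females and to 672, 3603, 1779 and 2909 TPM for males. The 9 neuronal genes summed to 3683, 3856, 5402 and 3607 TPM for females and to 3422, 2801, 3126 and 2797 TPM for males. The 5 oligodendrocyte genes summed to 1393, 556, 359 and 315 TPM for females and to 488, 1261, 1176 and 1075 TPM for males. Male 4 was second to male 2 in microglial TPM and lowest of all mice for the T cell list, although with the second block of each file alone female 2 was lowest for T cells (14.4 against 20.2 TPM in male 4). As a share of the microglial TPM, the T cell list came to 0.558% in male 4, 2.84% in male 2 and 9.54% in female 3, and the B and plasma cell list to 0.822% in male 4, 36.3% in male 2, 39.4% in female 4 and 53.4% in male 3. The part that microglia, oligodendrocytes or the yield of the sort had in these differences was not tested.

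**Figure D3:**
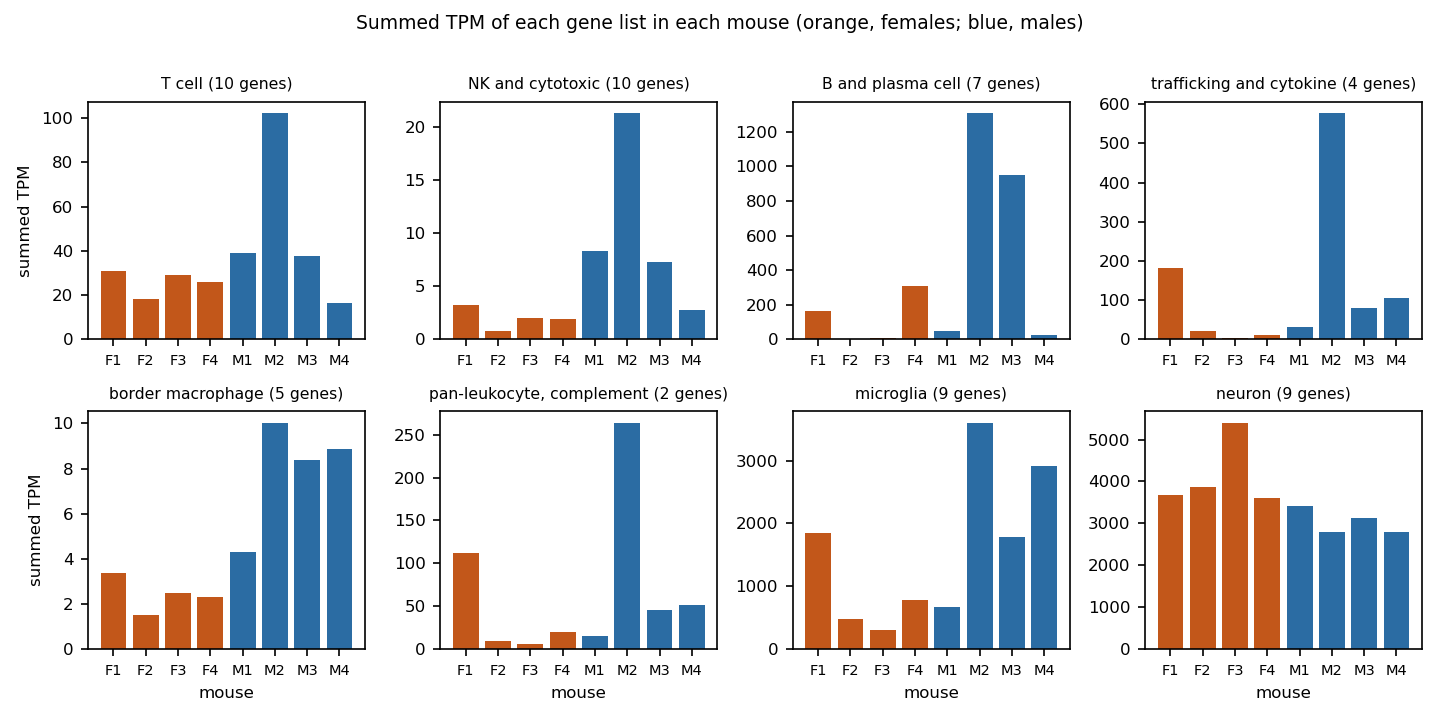
Bars give the TPM summed over each gene list in each mouse (orange, females; blue, males; each panel has its own linear axis from 0). Male 2 is the highest bar of all 6 immune lists shown and of the microglial list, male 4 is high for microglia and border macrophages and has the lowest plotted T cell bar, and the neuronal list varies less.

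Over the 21 genes tested, the median SD of log2 CPM between mice was 1.52, against 0.279 over all 15194 genes, 1.18 over the 9 microglial genes and 0.302 over the 9 neuronal genes. Of the 21 genes, 15 differed more than 10-fold between the highest and the lowest mouse, as 5.71% of all genes tested did. The files hold the transcripts of each mouse in 2 blocks with separate counts, and the median SD between the blocks of a mouse was 0.376 over the same genes and 0.175 over all genes. The SD between mice was above that between blocks for 19 of the 21 genes. It was below for *Cd3d* (0.269 between mice, 0.339 between blocks) and *Clec9a* (0.516 and 0.625). The SD between mice used both blocks summed, whereas that between blocks used single blocks with fewer counts and more counting error. The 2 are therefore not like for like. Without male 2 the median SD of the 21 genes was 1.14. Low counts widen such spreads, and the median CPM was 4.08 over the 21 genes and 19.8 over all genes.

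**Figure D4:**
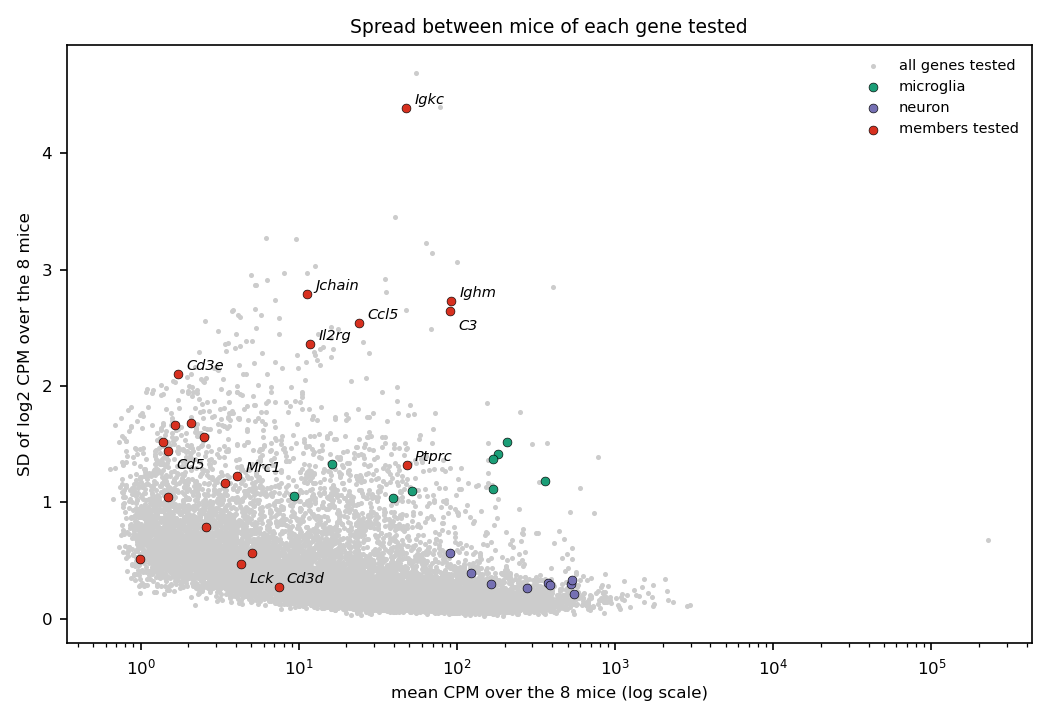
Each point is a gene tested, placed by its mean CPM (log scale) and by the SD of its log2 CPM over the 8 mice, with grey for all 15194 genes, red for the 21 immune cell genes, green for microglial and purple for neuronal genes. *Igkc*, *Jchain*, *Ighm*, *C3*, *Ccl5* and *Il2rg* lie above most genes of like mean, whereas *Cd3d* and *Lck* lie among them.

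The comparison of sexes asked whether TN SST neurons of females and males differ in their transcripts. For the immune cell genes no difference passed the test. Of the 21 genes tested, 0 were called at an adjusted p under 0.05 by edgeR (quasi-likelihood, p adjusted over all genes by Benjamini-Hochberg), where 0.158% of the 15194 genes were called (0.0461% as higher in males). At an unadjusted p under 0.05, 5 of the 21 were higher in males and 0 in females, against 10.7% of all genes higher in males. DESeq2 called 1 of the 21, *Mrc1*, and 6.92% of all genes. It gave no adjusted p for *Cd163*, *Ly6c2*, *C3*, *Cd5*, *Cd3e*, *Clec9a*, *Ccr2* and *Cd8a*, so these could not be called there. The 6.92% is of all 15194 genes, with or without an adjusted p. The fitted level was higher in males for 19 of the 21, against 50.6% of all genes, and higher in females for *Cd3d* and *Clec9a*. The median log2 fold change, female minus male, was -1.61 over the 21 genes and -0.0043 over all genes. Leaving out male 2 took the median to -0.44, with 16 genes higher in males and 5 in females.

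*Mrc1* had the smallest adjusted p of the 21, with a log2 fold change of -2.17 (SE 0.50, n = 4 and 4, edgeR adjusted p = 0.0897). Females averaged 1.47 ± 0.523 CPM and males 6.69 ± 4.25 CPM (mean ± SD over 4 mice). *Cd5* came next at -2.61 (SE 0.79, edgeR adjusted p = 0.140). *Mrc1* and *Cd5* were the tested members whose sexes did not overlap, in both cases higher in males. Of all genes tested 10.4% did not overlap, 3.94% with males higher and 6.48% with females higher. *Cd163* stood at -2.26 (edgeR adjusted p = 0.195), *Cd8a* at -2.12 (edgeR adjusted p = 0.234) and *Ptprc* at -1.50 (edgeR adjusted p = 0.235). The antibody genes had differences of like size with wide errors. *Igkc* stood at -2.43 (SE 1.80) and *Ighm* at -2.35 (SE 1.38). Both values turned on single mice, with *Igkc* at -8.18 without female 4 and *Ighm* at -5.41 without female 1 and -1.25 without male 2. Of the 21 genes, 17 had a fitted log2 fold change that leaving out some mouse moved by over 1.5 times. *Igkc* averaged 14.7 ± 28.8 CPM among females and 80.5 ± 90.7 CPM among males. Of the 9 microglial genes, all 9 were fitted higher in males with 0 called, and their median log2 fold change was -1.42. The neuronal genes had a median of 0.32, with all 9 fitted higher in females. Microglial genes were thus fitted in the direction of the immune cell genes and neuronal genes in the opposite direction, and their part in the difference was not tested.

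Among 20 genes of T cell receptor signaling and co-stimulation, 0 of the 13 tested were called by edgeR and 6 had an unadjusted p under 0.05, 5 of them higher in males. The background over all genes was 0.158% called and 10.7% higher in males at an unadjusted p under 0.05. Among 22 recruitment ligands and adhesion genes, 0 of the 16 tested were called and 9 had an unadjusted p under 0.05, all higher in males. The 3 recruitment genes with the highest mean TPM were *Ccl3*, *Ccl4* and *Icam1*, and all 3 were highest in male 4. *Ccl3*, a chemokine that microglia make when activated, was at 70.7, 41.7, 18.9 and 35.9 CPM in females and at 20.2, 105.1, 127 and 227 CPM in males.

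**Figure D5:**
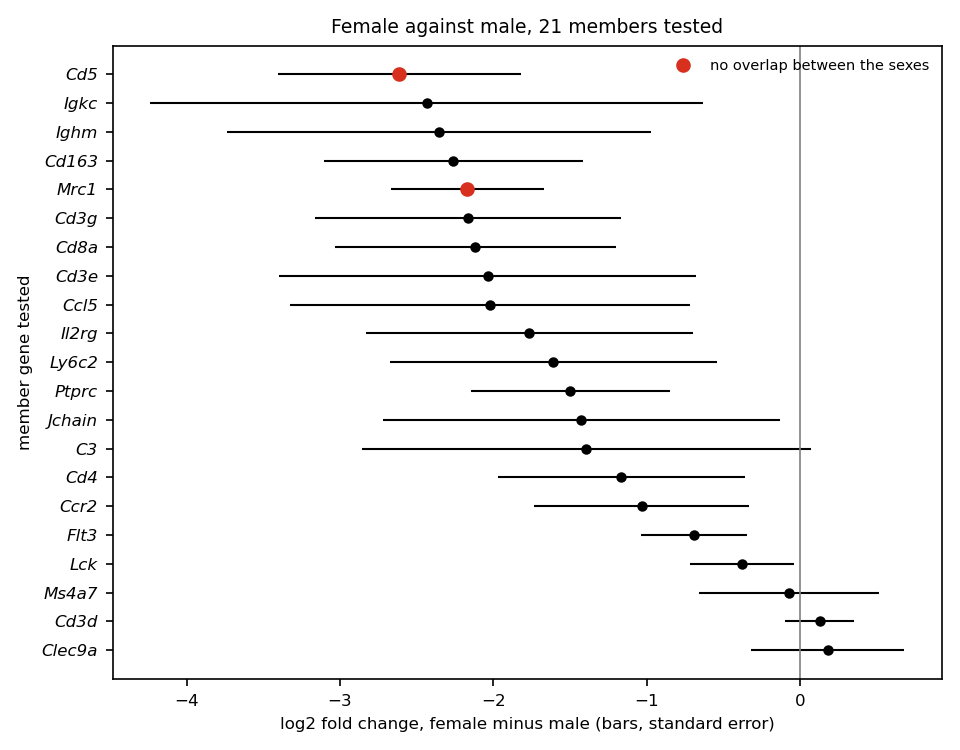
Points give the log2 fold change, female minus male, of each of the 21 immune cell genes tested, with bars for the standard error, and red points mark *Cd5* and *Mrc1*, whose sexes do not overlap. Of the points, 19 lie left of 0 (higher in males), and the bars of *Igkc*, *C3*, *Ighm* and *Cd3e* are among the widest.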

How the data were processed

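RNA from sorted tdTomato-positive cells of 4 female and 4 male mice was sequenced from stranded total RNA libraries, 1 per mouse. The authors assigned single-end reads to mm10 transcripts with kallisto 0.46.2 and deposited an estimated count for each transcript, not normalized between mice. The strand setting of kallisto is not given in the sources used here. The authors also deposited a TPM per transcript, handled as a score because each file holds 2 blocks of the same transcripts, each scaled to 1000000. What the blocks are is not given in the sources used here. The authors compared the sexes with DESeq2 (version 2.11.40.6 in the submitters' processing notes). No table of theirs was used.

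Estimated counts were summed over blocks and over the transcripts of each GENCODE M21 gene (116728 of 118489 transcripts matched, with 0.511% of counts unmatched on average) and rounded. TPM are means of both blocks, summed per gene. Females and males were compared with edgeR 4.0.16 (its quasi-likelihood test after TMM scaling and its default filter), which relied on limma 3.58.1 under R 4.3.3. Sex was the sole term, p was adjusted by Benjamini-Hochberg and the threshold was 0.05, and DESeq2 1.42.0 was the alternative. P-values rest on the spread between separate mice. Log2 CPM used a prior count of 2, and ratios between mice used 3 counts as the lowest level. The fit was tested on simulated counts with known changes. Every simulated gene had the same spread, near the median of all genes tested and below that of the members. The median biological coefficients of variation in edgeR were 0.203 and 0.785. The simulation therefore does not show what the fit could detect for the members. Shared sequence was counted as 31-base stretches that recur in transcripts of another gene. Joins, intervals and plots used Python 3.11.15 with numpy 2.4.6, pandas 2.3.3, scipy 1.17.1 and matplotlib 3.10.9.

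The members and lists were chosen with earlier results of these data known. Values per mouse are given for up to 4 members of each cell type with the highest mean TPM among those with at least 10 counts in a mouse, for members called or whose sexes do not overlap, and, of other lists, for up to 3 genes by mean TPM, plus *Cd74*. Immunoglobulin and T cell receptor segments, the forms of *Ighm*, and *Cd4* and *Cd8a* as named genes were chosen after values were seen. The replicate numbers did not pair the mice (correlations of same-numbered mice from -0.398 to 0.075). Alternatives were DESeq2, another normalization (RLE), other filters, a replicate block, each block of the files alone, and leaving out each mouse. Protein and genome sequences were not used here, and 1 gene of the microglial list is not reported here.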

Additional observations from a re-analysis of the deposited data

Results flagged for a closer look

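Within each sex, the mice were searched for a value set apart from the other 3 by Dixon's test. Over 81 groups of 4 mice, 1 for each sex and member with at least 10 counts in a mouse, 23 held such a value, 28.4%. Chance gives about 1 in 20 where values are normally distributed, which CPM near 0 are not. By the same search 5.96% of the groups of all genes tested, and 13 of the 42 groups of the members tested, held such a value. All 23 were high values. Male 2 gave 11 and female 1 gave 8 of them. Of those in male 2, *Tbx21*, *Cd79a* and *Cxcr3* reached 10 counts in that mouse alone.

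In male 2 they were *C3* at 429 CPM, *Ccl5* at 117, *Cd4* at 14.3, *Cd3g* at 12.8, *Ly6c2* at 6.23, *Ms4a7* at 6.23, *Cd5* at 5.68, *Xcr1* at 3.57, *Tbx21* at 2.11, *Cd79a* at 2.02 and *Cxcr3* at 1.65. In female 1 they were *C3* at 188 CPM, *Ighm* at 110.2, *Ccl5* at 32.4, *Il2rg* at 18.8, *Cd3e* at 2.44, *Cd79b* at 0.777, *Plac8* at 0.444 and *Cxcr3* at 0.111. *C3*, *Ccl5* and *Cxcr3* were set apart in both of these mice. The others were *Igkc* at 57.9 CPM in female 4, *Ms4a1* at 0.987 and *Ighd* at 0.0493 in female 3, and *Lyve1* at 0.153 in female 2. The values of *Cxcr3* in female 1, of *Ighd* and of *Lyve1* are each 1 count. In the female groups of *Ighd*, *Lyve1*, *Plac8* and *Cxcr3* the other 3 mice were at 0, so any count there is set apart.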

How the results depend on the processing

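Of 391 comparisons of a value with its alternative, 299 concern single genes, of which 287 kept their direction and side of the threshold. With 0 members called in the main fit, keeping the side means only not being called. A missing DESeq2 adjusted p was counted as not called. Sizes could still change. Without male 2, the log2 fold change of *Cd3g* went from -2.17 to -0.44 and that of *Ly6c2* from -1.61 to -0.015. DESeq2 raised the genes called between the sexes from 24 to 1052 and the members called from 0 to 1. It gave no adjusted p for some members. Leaving out 1 mouse gave 8 to 415 genes (415 without female 1, 411 without male 1) and 0 to 1 members: *Il2rg* without female 1 (edgeR adjusted p = 0.0426) and *Mrc1* without male 1 (edgeR adjusted p = 0.0447). The median log2 fold change of the members then lay between -2.18 (without female 1) and -0.44 (without male 2), and their median SD between mice between 1.14 (without male 2) and 1.63. With each of the others left out, 8 to 13 genes and 0 members were called. A replicate block, although the numbers do not pair the mice, left 1 gene called and 0 members. At a minimum of 30 counts, 25 members were detected in place of 41.

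Directions turned for 5 of the 21 genes, none of them called. Over the fits that leave out 1 mouse, log2 fold changes ran from -1.52 to 0.42 for *Cd4*, from -5.11 to 0.69 for *C3*, from -0.30 to 0.79 for *Ms4a7*, from -0.038 to 0.24 for *Cd3d* and from -0.041 to 0.75 for *Clec9a*. The first 3 turned without male 2, *Ms4a7* also without females 2 and 3 and, at 0.23, under the replicate block, *Cd3d* without female 4, and *Clec9a* without male 1 or male 3. With the first block of each file alone the median SD was 1.32. The share of the neutrophil list's TPM in male 2 was 70.8%, and 100% and 32.6% with each block alone, from at most 4 counts a gene. The cause of these changes was not tested. The count of members highest in male 2, 34 by CPM, was 34 by TPM and with RLE and 31 with each block alone. In the shallowest libraries, female 2 and male 4, a gene under 0.458 and 0.378 CPM was not detectable.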
